A study of Mus musculus with 10 samples.

Results

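The intermediate filament genes Gfap, Vim and Nes, which encode glial fibrillary acidic protein, vimentin and nestin, were followed through a series of mouse knockouts. They are 3 of the 28059 genes listed, were chosen by name with earlier results of these data known, and carry the Entrez gene identifiers 14580, 22352 and 18008. All 3 passed the filter on low counts, which kept 18671 genes for testing. Messenger RNA had been sequenced from E18.5 (late embryonic) brains without their olfactory bulbs, in 10 libraries of 5 genotypes with 2 libraries each. The genotypes were COP1 het control (control), COP1 KO (KO), COP1/cJun DKO (DKO), COP1/cJun/ETV1 TKO (TKO) and COP1/cJun/ETV1/ETV5 QKO (QKO). The control was thus heterozygous for COP1, not wild type, and every other genotype is labelled as lacking COP1. The labels give no Cre driver, strain, litter or sex, nor whether libraries of 1 genotype are separate animals. The p-values measure the spread between these libraries, which may be technical.

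Intermediate filaments are rod-shaped proteins that assemble into the ropes of the cytoskeleton and differ between cell types. Nestin and vimentin are the filaments of radial glia and neural stem cells. Vimentin is also made by endothelial, meningeal and other mesenchymal cells, and GFAP appears as radial glia turn into astrocytes, late in embryonic life and after birth. COP1 is an E3 ubiquitin ligase that marks the transcription factors c-Jun, ETV1 and ETV5 for degradation. c-Jun is part of the AP-1 factors, and ETV1 and ETV5 are ETS factors.

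The DNA before the 3 genes is shown because c-Jun, ETV1 and ETV5 bind DNA, and the windows show which of the factors' letters lie at the gene starts. Each window runs from 250 bases before the gene start to 20 bases after it, from RefSeq on build GRCm38.p6. The Gfap window is chr11:102897181-102897450 on the minus strand, that of Vim is chr2:13574061-13574330 on the plus strand, and that of Nes is chr3:87970843-87971112 on the plus strand. Capitals mark the matches to the motifs searched.
Gfap: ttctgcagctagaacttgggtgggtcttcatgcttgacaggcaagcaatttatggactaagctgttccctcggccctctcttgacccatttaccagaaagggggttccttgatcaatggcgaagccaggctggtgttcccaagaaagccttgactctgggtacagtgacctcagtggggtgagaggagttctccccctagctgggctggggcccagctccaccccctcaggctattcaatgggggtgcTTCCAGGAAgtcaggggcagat
Vim: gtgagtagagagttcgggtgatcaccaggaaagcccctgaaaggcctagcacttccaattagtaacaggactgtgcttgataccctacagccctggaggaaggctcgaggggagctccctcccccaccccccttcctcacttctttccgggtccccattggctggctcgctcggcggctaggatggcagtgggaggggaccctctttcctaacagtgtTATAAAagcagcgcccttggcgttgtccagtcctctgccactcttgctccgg
Nes: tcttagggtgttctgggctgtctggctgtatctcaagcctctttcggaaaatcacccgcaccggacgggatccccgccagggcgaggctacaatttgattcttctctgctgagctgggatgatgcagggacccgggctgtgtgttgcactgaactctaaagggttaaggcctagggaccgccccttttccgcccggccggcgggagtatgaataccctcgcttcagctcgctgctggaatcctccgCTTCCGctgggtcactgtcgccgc
The motifs were searched on both strands of windows that reached 50 bases past the start, in these genes and in all 32851 RefSeq promoters. The AP-1 letters TGANTCA, present in 7.81% of all promoters, were in none of the 3 windows, and neither were TGACGTCA (AP-1 or CRE, 1.79% of promoters) or ATGCNAAT (POU factors, 3.15%). The ETS letters CGGAAG, present in 16.9% of promoters, matched the Nes window 1 time, on the reverse strand (CTTCCG as printed, offset -4 from the gene start). The STAT letters TTCNNNGAA, in 8.3% of promoters, matched the Gfap window 1 time, at offset -2. TATAAA, in 13.6% of promoters, matched the Vim window 1 time, at offset -32. A match describes letters and is not a binding site, and a missing match covers only this window. The windows held 55.7% GC at Gfap, 59.3% at Vim and 58.7% at Nes, against a median of 52.7% over all promoters, and 3, 11 and 18 CpG dinucleotides, against a median of 7.

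The libraries held 31996944 to 54594523 counts. Jun followed the labels: its level lay between 15 and 16.1 nRPKM in the control and KO libraries and between 1.44 and 2.94 nRPKM in the other 6. Here nRPKM is the authors' RPKM, reads scaled by gene length and depth, after a further size-factor adjustment. Whole-gene counts of Cop1, Etv1 and Etv5 did not check their labels, since Cop1 differed by only -0.28 ± 0.09 (SE) on the log2 scale between KO and control (edgeR adjusted p = 0.27), and Etv1 was higher in TKO than in DKO by 0.88 ± 0.12. Xist, which coats the inactive X in females, reached 1850 CPM (counts at an equal library size) in control 1 and 1460 in DKO 1, and between 0.906 and 1.94 in the other 8 libraries. The libraries of control and of DKO thus came from different embryos, and KO, TKO and QKO held only libraries with low Xist.

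Gfap was the least abundant of the 3 transcripts and the one that differed most between genotypes. Its level was 5.16 and 4.87 nRPKM in the control libraries and 21.3 and 18.3 in the KO libraries. It was 5.56 and 4.66 nRPKM in DKO, 4.33 and 7.10 in TKO, and 4.08 and 2.12 in QKO. Both KO libraries lay far above the other 8, and QKO 2 was the lowest of all. The control and DKO libraries overlapped, as did DKO and TKO, whereas both QKO libraries lay below all control, DKO and TKO libraries. Group means ± SD (n = 2) in rising order were 3.1 ± 1.39 in QKO, 5.01 ± 0.205 in control, 5.11 ± 0.633 in DKO, 5.71 ± 1.96 in TKO and 19.8 ± 2.15 in KO. Between neighbours in this order, only the step from TKO to KO passed the test. The Gfap values rested on 390 to 5183 reads per library, which gives a counting error of at most 5.06%.

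Vim was the most abundant, at 152 and 145 nRPKM in control and 232 and 236 in KO. It stood at 145 and 131 nRPKM in DKO, 130 and 125 in TKO, and 122 and 134 in QKO. The KO libraries were again the highest, and their level was close to equal. Outside KO, the 2 control libraries were the highest, with DKO 1 just under control 2, the QKO range overlapped those of DKO and TKO, and both TKO libraries lay below both DKO libraries. The group means ± SD (n = 2) were 128 ± 3.6 in TKO, 128 ± 8.54 in QKO, 138 ± 9.49 in DKO, 149 ± 4.49 in control and 234 ± 2.65 in KO. The step from control to KO was the only one between neighbours that passed the test.

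Nes stood at 22.5 and 22.3 nRPKM in control and at 30.3 and 35.4 in KO. It was 16.4 and 16.2 nRPKM in DKO, 18.8 and 17.7 in TKO, and 18.4 and 20.8 in QKO. KO was the highest genotype here too, but DKO was the lowest: both DKO libraries lay below every other library. The control libraries lay above all DKO, TKO and QKO libraries, while TKO and QKO overlapped. The means ± SD (n = 2) rose from 16.3 ± 0.103 in DKO through 18.3 ± 0.797 in TKO, 19.6 ± 1.71 in QKO and 22.4 ± 0.141 in control to 32.9 ± 3.58 in KO, and only the step from control to KO passed the test between neighbours.

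**Figure D1:**
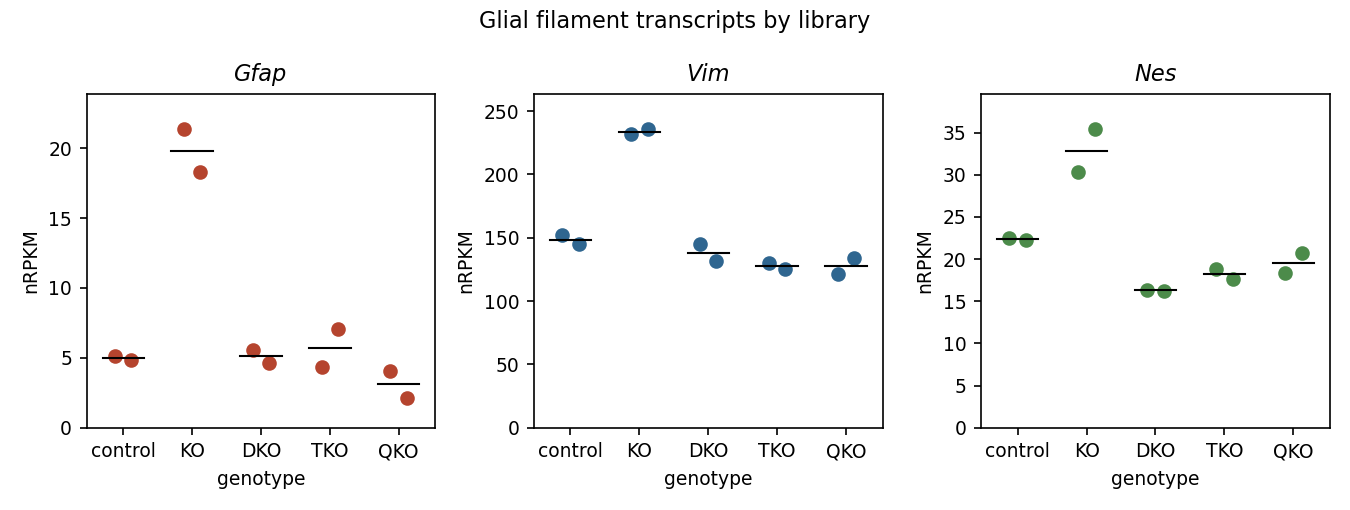
Level of Gfap, Vim and Nes in nRPKM (linear axes from 0) in each of the 10 libraries, by genotype, with points for libraries and a line at the mean of the 2 libraries. In each panel both KO points lie above all others, and the lowest mean is QKO for Gfap, TKO and QKO for Vim (128 each), and DKO for Nes.

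The comparison of KO with control asked what loss of COP1 did to the 3 genes. All 3 rose, where 0.503% of all 18671 genes tested were called higher (edgeR quasi-likelihood test, Benjamini-Hochberg adjusted p under 0.05) and 0.23% lower. Because the 3 genes were chosen with earlier results known, such shares, here and below, are a background and not a test of the set. Gfap was 3.98-fold higher, a log2 difference of 1.99 ± 0.26 (SE; 95% interval 1.42 to 2.57; adjusted p = 0.00562), which ranked 50 by size among all genes tested. Vim rose by 0.66 ± 0.07 (0.50 to 0.82; adjusted p = 0.00177), or 1.58-fold. Nes rose by 0.56 ± 0.08 (0.39 to 0.74; adjusted p = 0.00981), or 1.48-fold. The interval of Gfap did not overlap those of Vim and Nes, which overlapped each other; the differences between the genes' changes were not tested. In 4 fits that each left out 1 library, Vim was called 4 times, Gfap 1 time (without KO 2) and Nes 1 time (without KO 1), while the sizes stayed between 1.87 and 2.09 for Gfap and between 0.44 and 0.67 for Nes.

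The comparison of DKO with KO asked what further loss of c-Jun did. All 3 genes fell, where 0.37% of all genes were called lower and 0.198% higher. Gfap was 3.89-fold lower, a log2 difference of -1.96 ± 0.26 (-2.53 to -1.39; edgeR adjusted p = 0.00546). Vim was 1.70-fold lower at -0.77 ± 0.07 (adjusted p = 0.000667), and Nes 2.03-fold lower at -1.02 ± 0.08 (adjusted p = 0.000159). All 3 calls held in each of the 4 fits that left out 1 library. This comparison shares the KO libraries with that of KO and control, so that a deviation of those libraries enters both with opposite signs.

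DKO was therefore also set against the control. Gfap differed by 0.03 ± 0.26 (-0.54 to 0.61; edgeR adjusted p = 0.989) and Vim by -0.10 ± 0.07 (-0.26 to 0.06; adjusted p = 0.806). The Gfap value depended on covariates for hindbrain (HOX) and blood (erythroid) genes: it was 0.63 ± 0.35 with the HOX value and 1.40 ± 0.72 with the erythroid value, neither of them called. DKO and control did not overlap in either covariate, so that covariate and genotype cannot be told apart here. Nes was lower in DKO than in control, by -0.45 ± 0.08 (-0.63 to -0.28; adjusted p = 0.0421), where 0.123% of all genes were called lower. This call did not hold in any of the 4 fits that left out 1 library, nor with Xist as a covariate (adjusted p = 0.0592), without the libraries of high Xist (adjusted p = 0.432) or with the erythroid covariate, where the value was -1.04 (adjusted p = 0.44). The fit with the erythroid covariate called 0 genes of the whole table in DKO against control. The 2 DKO libraries, 1 with high and 1 with low Xist, differed in Nes by 0.02 on the log2 scale.

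Removal of ETV1 in addition, TKO against DKO, changed none of the 3 genes past the threshold, where 0.0911% of all genes were called in either direction. The count of members was 0 also at an unadjusted p under 0.05 and by DESeq2. Gfap differed by 0.16 ± 0.26 (-0.42 to 0.73; edgeR adjusted p = 0.832), Vim by -0.11 ± 0.07 (-0.27 to 0.05; adjusted p = 0.551) and Nes by 0.17 ± 0.08 (-0.01 to 0.35; adjusted p = 0.444). In this fit without covariates, the intervals leave out a change as large as that between DKO and KO for each gene. DKO and TKO did not overlap in the HOX or the erythroid covariate, so that covariate and genotype cannot be told apart here. The sign for Gfap changed without TKO 2 (-0.25), with the HOX covariate (-0.21 ± 0.28) and with the erythroid covariate (-1.07 ± 0.65).

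Removal of ETV5 in addition, QKO against TKO, gave 0 calls among the 3 genes by edgeR and by DESeq2, where 0.289% of all genes were called. At an unadjusted edgeR p under 0.05 the count was 1, where 1079 of all 18671 genes reached that level. That 1 gene was Gfap, at -0.89 ± 0.27 (-1.48 to -0.29; edgeR adjusted p = 0.405). The adjusted p was 0.0429 without QKO 1, where the difference was -1.43, and without QKO 2 or without TKO 2 the difference was -0.48 in each case. Vim differed by -0.00 ± 0.07 (-0.16 to 0.16; adjusted p = 1) and Nes by 0.09 ± 0.08 (-0.09 to 0.27; adjusted p = 1).

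At the end of the series, QKO against control also gave 0 calls among the 3 genes by edgeR and by DESeq2, where 0.236% of all genes were called. All 3 had an unadjusted p under 0.05, as did 1286 of all 18671 genes tested, and all 3 were lower in QKO. Gfap differed by -0.70 ± 0.27 (-1.29 to -0.10; edgeR adjusted p = 0.643), Vim by -0.22 ± 0.07 (-0.38 to -0.06; adjusted p = 0.539) and Nes by -0.19 ± 0.08 (-0.37 to -0.01; adjusted p = 0.684). For each gene both QKO libraries lay below both control libraries. The Gfap difference was -1.24 without QKO 1, -0.29 without QKO 2, -0.41 with the HOX covariate and -0.26 with the erythroid covariate.

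The other pairs of genotypes completed the order. TKO fell below KO in all 3 genes, where 0.236% of all genes were called lower, with Gfap at -1.80 ± 0.26 (edgeR adjusted p = 0.0126), Vim at -0.88 ± 0.07 (adjusted p = 0.000231) and Nes at -0.85 ± 0.08 (adjusted p = 0.000728). The Gfap call was made in 1 of the 4 fits that left out 1 library, the one without TKO 2, and was lost with the erythroid covariate (-1.22, adjusted p = 0.741). QKO fell below KO in all 3 as well, where 0.932% of genes were called lower, with Gfap 6.45-fold lower at -2.69 ± 0.27 (adjusted p = 0.000582), Vim at -0.88 ± 0.07 (adjusted p = 0.000252) and Nes at -0.76 ± 0.08 (adjusted p = 0.000783). The erythroid covariate ended the QKO calls of Gfap (-1.81, adjusted p = 0.784) and Vim (-1.04, adjusted p = 0.151). Over the whole table this covariate left 12 genes called in TKO against KO and 5 in QKO against KO, against 62 and 240 without it. TKO against control gave 0 calls by edgeR and DESeq2, where 0.15% of all genes were called. At an unadjusted p under 0.05 it gave 2, where 1914 of the 18671 genes reached that level. Nes was called in this pair (-0.29, adjusted p = 0.0182) when edgeR was run on these 4 libraries only. QKO against DKO likewise gave 0 calls and 2 unadjusted (0.696% of all genes called, 1943 genes unadjusted). The comparisons with KO share its 2 libraries and are not independent of one another.

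**Figure D2:**
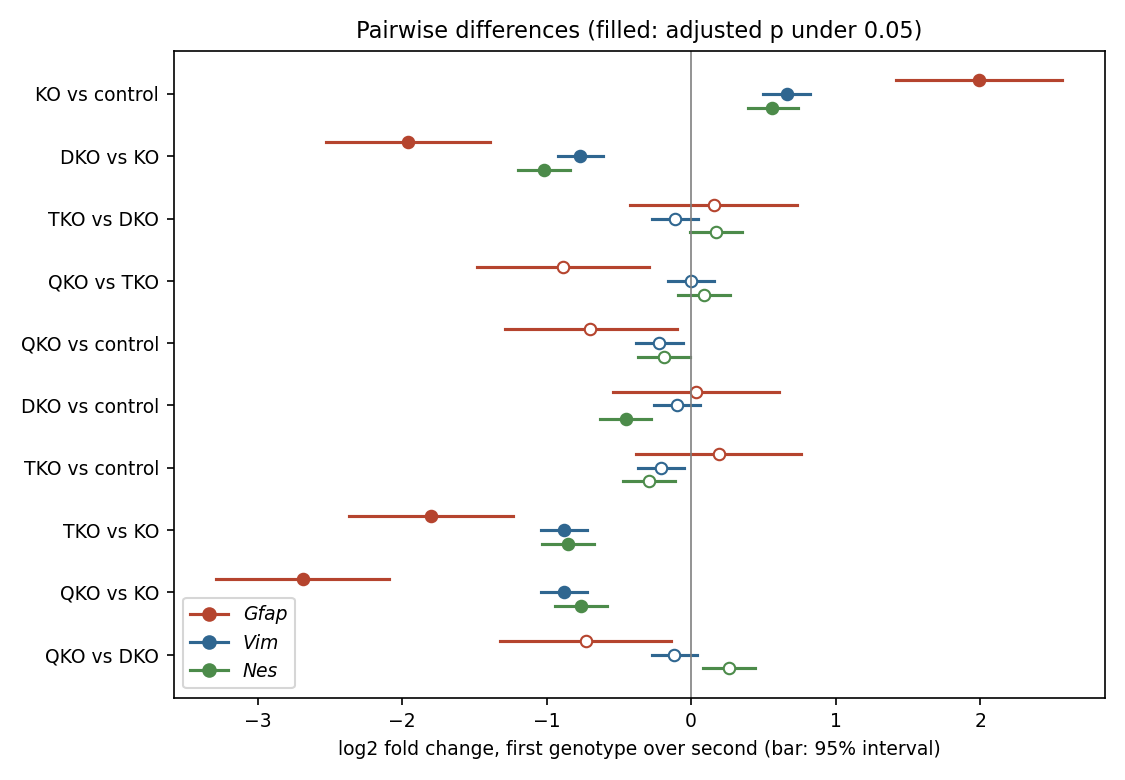
Log2 fold change of Gfap, Vim and Nes in each of the 10 pairs of genotypes, first named over second, with 95% intervals from edgeR and filled points where the adjusted p was under 0.05. The filled points are the 3 genes in each of the 4 pairs with KO, and Nes in DKO against control (-0.45).

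The balance between the 3 transcripts also differed by library. Gfap was 3.4 and 3.35% of the Vim level, both in nRPKM, in control, 9.2 and 7.77% in KO, 3.83 and 3.55% in DKO, 3.32 and 5.68% in TKO and 3.35 and 1.58% in QKO. The KO libraries were the highest in this ratio and QKO 2 the lowest. Nes was 14.8 and 15.3% of Vim in control and 13.1 and 15% in KO, but 11.3 and 12.3% in DKO, the lowest genotype, and 14.5 and 14.1% in TKO and 15.1 and 15.5% in QKO. The ratio of Nes to Vim thus lay between 13.1 and 15.5% outside DKO, while that of Gfap to Vim ran from 1.58 to 9.2%. These ratios were not tested.

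Gfap was among the most variable genes within TKO and QKO. Its 2 libraries differed by 0.71 on the log2 scale in TKO and by 0.95 in QKO. This was more than in 99.5% and 98.7% of the 16011 genes with a mean CPM of at least 1, whose median differences were 0.10 and 0.13. In control, KO and DKO the Gfap differences were 0.09, 0.22 and 0.26. Vim differed within groups by 0.02 to 0.15 and Nes by 0.01 to 0.22, with the Nes maximum in KO. The biological coefficient of variation that edgeR fitted was 0.186 for Gfap, 0.0621 for Vim and 0.0653 for Nes, against 0.0821 in common.

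Genes of the caudal hindbrain and of blood moved with some of the groups. The mean log2 level of the HOX genes, which mark hindbrain and spinal cord, relative to the control mean was -3.22 and -4.71 in KO 1 and KO 2, -3.35 and -2.49 in DKO, -0.9 and -1.32 in TKO, and -0.16 and -3.26 in QKO 1 and QKO 2. Of 11 HOX genes tested, 6 fell in KO against control, with a median of -3.44. The HOX values of DKO overlapped those of KO, and its Gfap values overlapped those of control. With the HOX covariate, Gfap in DKO against control was 0.63 ± 0.35, which was not called. The part of hindbrain content in the Gfap result was not tested. With the HOX value as a covariate, Gfap in KO against control was 2.78 and called, while Vim was 0.49 (edgeR adjusted p = 0.111) and Nes 0.30 (adjusted p = 0.254). The KO values lay far below those of control (-0.22 and 0.22), so that this covariate and the genotype cannot be told apart in that comparison. Its slope rests on differences within genotypes, of which that in QKO was the largest. Within QKO, the library with few HOX reads was also the one with less Gfap.

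The mean log2 level of erythroid genes, the hemoglobin and red cell transcripts, was -0.55 and -0.14 in the KO libraries relative to control, 1.07 and 1.06 in DKO, and between 0.08 and 0.49 in TKO and QKO. In DKO against KO, 5 of 7 erythroid genes rose, of which Hbb-b1 and Hbb-b2 are 1 measurement. With the erythroid value as a covariate, Gfap differed by -0.15 ± 0.92 between DKO and KO, Vim by -1.07 ± 0.29 and Nes by -1.78 ± 0.23. None was called, in a fit that called 0 genes of the whole table in this comparison. The loss of these calls was thus not particular to the 3 genes. Without the covariate the values were -1.96, -0.77 and -1.02. Both DKO libraries stood alone at the high end of this value, so that the covariate and the genotype cannot be told apart in that comparison. In KO against control it left Vim and Nes called and Gfap at 1.55 (edgeR adjusted p = 0.153). In bulk tissue, fewer cells of a type and less RNA per cell cannot be told apart.

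**Figure D3:**
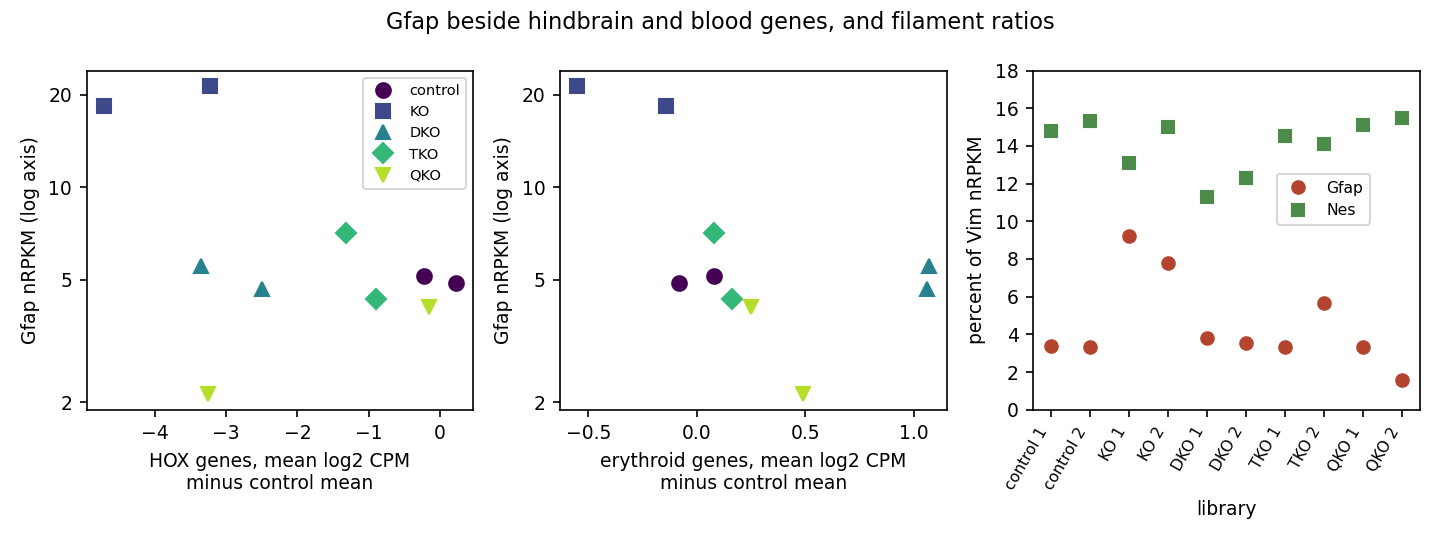
Left and middle, Gfap in nRPKM (log axis) against the mean log2 level of HOX and of erythroid genes relative to the control mean, 1 point per library and 1 symbol per genotype. Right, Gfap and Nes as percent of the Vim nRPKM in each library, with Gfap at 9.2 and 7.77% in KO and Nes at 11.3 and 12.3% in DKO.

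The other genes of glia were read from lists of markers. Of 12 astrocyte genes 3 rose in KO against control, with a list median of 0.00 against 0.007 over all genes tested: Fgfr3, a growth factor receptor, by 0.78 ± 0.10, Aldh1l1, a folate enzyme of astrocytes, by 0.60 ± 0.08 and Slc1a3, a glutamate transporter, by 0.37 ± 0.07. In DKO against KO edgeR called 1 of 12, lower, which was Aldh1l1 at -0.57 ± 0.08 (median -0.05), and DESeq2 called 3 lower. At an unadjusted p under 0.05, 5 of the 12 were higher and 2 lower in KO against control, and DESeq2 called 3 higher and 1 lower. Over all 18671 genes tested, 1948 had an unadjusted p under 0.05 in KO against control and 2583 in DKO against KO. These are the background for the unadjusted counts of each list. The summed level of the list was 1057 and 1151 nRPKM in KO and 1157 to 1229 in control. Such a sum follows the most abundant genes of the list, and the part of astrocyte number in the Gfap result was not tested. In QKO against TKO, Aqp4, the water channel of astrocyte endfeet, fell by 0.83 ± 0.15, with 16.2 and 14.1 nRPKM in TKO and 10.1 and 6.96 in QKO.

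Of 14 radial glia genes, the cell type in which Nes and Vim are best known, 2 rose in KO against control (Egfr, a growth factor receptor, by 0.69 ± 0.09, and Slc1a3) and 1 fell (Pdpn, a membrane glycoprotein, at -0.51 ± 0.09), with a median of 0.22. In DKO against KO 3 fell, with a median of -0.16: Egfr at -0.85 ± 0.09, Tnc, an extracellular matrix protein, at -0.78 ± 0.12, and Notch1, a receptor, at -0.65 ± 0.11. The marker levels of Egfr were 7.55 and 8.3 nRPKM in KO, above the 4.17 to 5.16 nRPKM of all other libraries, as Nes and Vim were. The list as a whole was mixed: by DESeq2, 4 of the 14 genes were higher in KO than in control and 2 were lower. At an unadjusted p under 0.05, 7 were higher and 3 lower there, and 0 were higher and 5 lower in DKO against KO. The median over all genes tested was 0.007 in KO against control and -0.002 in DKO against KO. Summed over the list, the level was 1060 to 1090 nRPKM in KO, below the 1108 to 1164 of control. This sum too follows the most abundant genes, and the part of radial glia number in the Nes and Vim results was not tested. The 8 proliferation genes gave 0 calls by edgeR in both comparisons, with 0 and 4 at an unadjusted p under 0.05 and 0 and 1 by DESeq2.

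Oligodendrocyte precursor markers rose beside the filament genes in KO against control, 5 of 5 with a median of 1.02, among them Olig1 by 1.21 ± 0.13, Olig2 by 1.11 ± 0.09 and Sox10 by 1.02 ± 0.16, transcription factors of that lineage. In DKO against KO 0 of 5 were called by edgeR, 3 by DESeq2 and 5 were lower at an unadjusted p under 0.05, with a median of -0.51. Their summed level was 71.3 and 82.1 nRPKM in control, 147 and 172 in KO, 108 and 121 in DKO, 101 and 112 in TKO and 65.3 and 73.5 in QKO. The summed level in DKO lay above that in control, with Olig2 called (0.78 ± 0.09), while Gfap and Vim in DKO were within 0.10 of control in the fit without covariates. The part of a change in cell makeup in the filament results was not tested.

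Reactive astrocyte genes, with which Gfap and Vim rise after injury, gave 0 of 10 calls in KO against control by edgeR and DESeq2, with 2 at an unadjusted p under 0.05 and a median of -0.04. Their summed level was 12.7 and 13 nRPKM in control and 12.5 and 13.1 in KO. The only call of the list was Serpina3n, a protease inhibitor, in QKO, at 3.22 and 2.74 nRPKM against 0.855 to 1.21 in all other libraries (1.55 ± 0.16 against TKO, edgeR adjusted p = 0.00129). Gfap was at its lowest in those libraries.

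Vim is also a transcript of vessels and meninges. Of 13 endothelial and pericyte genes 0 were called in KO against control, with 0 unadjusted and 0 by DESeq2, and their summed level was 149 nRPKM in both KO libraries and 151 and 162 in control. Of 10 meningeal fibroblast genes 0 were called by edgeR or DESeq2, with 2 lower at an unadjusted p under 0.05, and their summed level was 354 nRPKM in both KO libraries against 422 and 471 in control. Neither summed level was higher where Vim was highest, and the part of these cells in the Vim result was not tested. Ependymal (6 genes), microglial (9) and neuronal (6) markers also gave 0 calls by edgeR in that comparison, with 1, 0 and 1 at an unadjusted p under 0.05 and 0, 0 and 1 by DESeq2.

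None of the 15 other intermediate filament genes listed was called higher in KO against control, as Gfap, Vim and Nes were. Of these 15 genes 0 were called higher and 1 lower, with a median of -0.05 and with 1 higher and 4 lower at an unadjusted p under 0.05. The 1 called was Nefh, the heavy neurofilament of axons, at 6.44 and 6.57 nRPKM in control and 3.75 and 3.15 in KO (-0.90 ± 0.13; edgeR adjusted p = 0.0112). The largest change was that of Prph, at -1.69 ± 0.41 (adjusted p = 0.117), and the largest upward one that of Krt19, at 0.62 ± 0.26 (adjusted p = 0.435). The other neurofilaments Nefm and Nefl were at -0.50 ± 0.13 and -0.30 ± 0.08 and did not pass (adjusted p = 0.144 and 0.154), and DESeq2 called 3 of the 15 lower. Synm, which encodes synemin, a partner that assembles with vimentin, differed by -0.10 ± 0.07 (adjusted p = 0.651). In DKO against KO 0 of 15 were called by edgeR or DESeq2, with 4 higher at an unadjusted p under 0.05.

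Filament linkers, chaperones and modifying enzymes, such as plectin and the kinases that disassemble vimentin, gave 0 of 13 calls by edgeR and DESeq2 in KO against control (1 unadjusted) and in DKO against KO (6 lower unadjusted), with medians of 0.09 and -0.10. Of 17 transcription factors known at glial filament genes 0 were called by edgeR in either comparison, with 4 and 5 at an unadjusted p under 0.05, 0 and 2 by DESeq2, and medians of 0.02 and -0.07. Stat3, the cytokine-activated factor of the Gfap promoter, differed by 0.15 ± 0.06 in KO against control (adjusted p = 0.448), and Sox9, a gliogenic factor, by 0.29 ± 0.07 (adjusted p = 0.136) and then by -0.36 ± 0.07 in DKO against KO (adjusted p = 0.065). Of 15 genes of gliogenic cytokine and BMP signalling 0 were called by edgeR or DESeq2 in either comparison, with 0 and 1 unadjusted and medians of 0.07 and -0.02. Hes1, a Notch target, rose in DKO against control by 0.68 ± 0.11 (adjusted p = 0.0209), at 7.32 and 6.33 nRPKM in DKO and 4.05 and 4.48 in control, in the genotype where Nes was lowest.

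Genes whose levels were most like those of each member were named by the highest Pearson correlation of log2 CPM over the 10 libraries among 16011 genes. For Gfap they were Nr3c1, the glucocorticoid receptor, with r = 0.959, then Cdc42se1, Slc25a45, Lfng, which modifies Notch receptors, and Bag3, a co-chaperone, with r between 0.939 and 0.942. Over the 8 libraries outside KO their r lay between 0.70 and 0.84. The correlation over all libraries is set largely by the KO pair, which every point set shares, and is a description. For Vim they were the unnamed identifier ID100862060 (r = 0.995), Golim4 (0.983), Pls1, an actin bundler (0.973) and Dusp16, a phosphatase of MAP kinases (0.958). The count of ID100862060 was between 34.2 and 37.3% of the Vim count in every library, and whether the identifiers share reads was not tested. For Nes they were Polr3b, a subunit of RNA polymerase III (0.961), Eva1c (0.954), Tgfb3, a growth factor (0.953), Fam167a (0.946) and Edc4 (0.944), of which Tgfb3 and Fam167a kept r = 0.98 outside KO.

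Those genes were picked for the highest r, so that any member not among them had a lower r by that choice. By rank of r over the 10 libraries, Vim was 14 for Nes and Nes 20 for Vim. Gfap was 59 for Vim and 379 for Nes, and for Gfap itself Vim was 70 and Nes 407. Gfap and Vim had r = 0.87 over 10 libraries and 0.12 over the 8 outside KO, Gfap and Nes 0.73 and -0.30, and Vim and Nes 0.91 and 0.47. Jun, which the DKO, TKO and QKO labels say is lost, had r = 0.64 with Gfap, 0.77 with Vim and 0.78 with Nes over 10 libraries, and 0.24, 0.80 and 0.70 outside KO. Outside KO, Jun was at 15 nRPKM in both control libraries and between 1.44 and 2.94 in the rest. The r there thus mainly sets control against the other genotypes. The Jun transcript did not pass the test between KO and control, at 0.07 ± 0.19 (-0.34 to 0.49; edgeR adjusted p = 0.927).

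**Figure D4:**
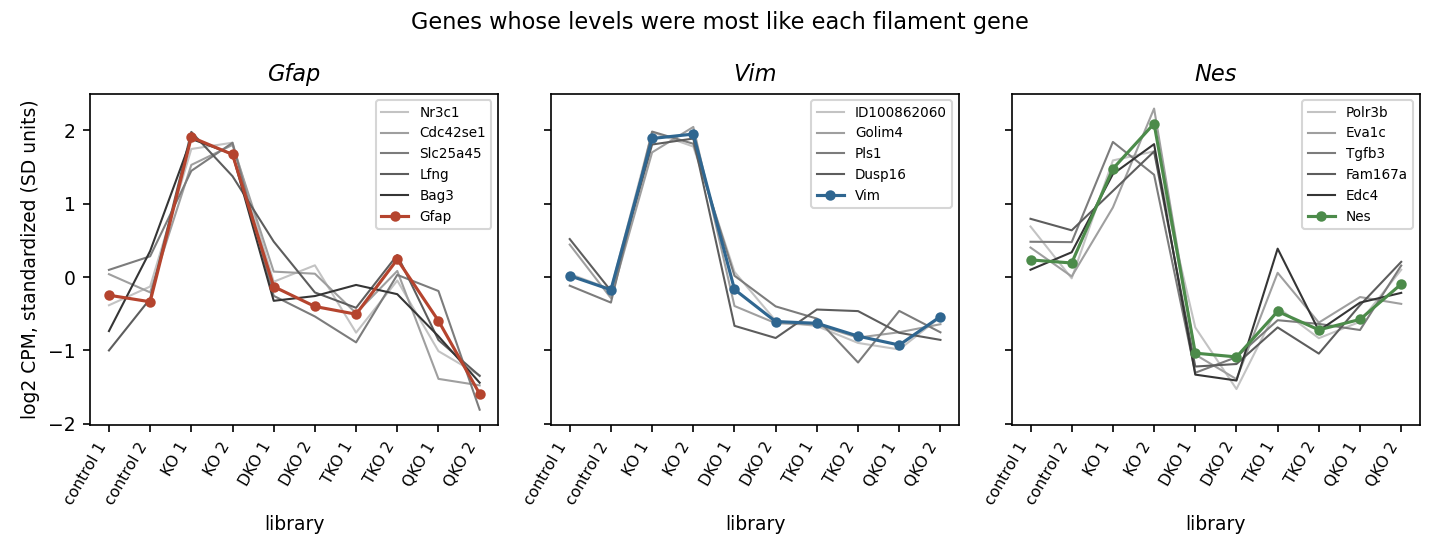
Log2 CPM of Gfap, Vim and Nes (coloured) and of the genes named as most like each (grey), each standardized over the 10 libraries, in SD units. The grey lines all peak in KO with their member, and after KO the Gfap lines end lowest in QKO 2 while the Nes lines are lowest in DKO.

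The direction of the 3 genes in KO against control and in DKO against KO was kept under each of the 12 alternatives. In KO against control Gfap was called in 8 of 12, Vim in 11 and Nes in 7, and in DKO against KO each gene was called in 11 of 12.

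**Figure D5:**
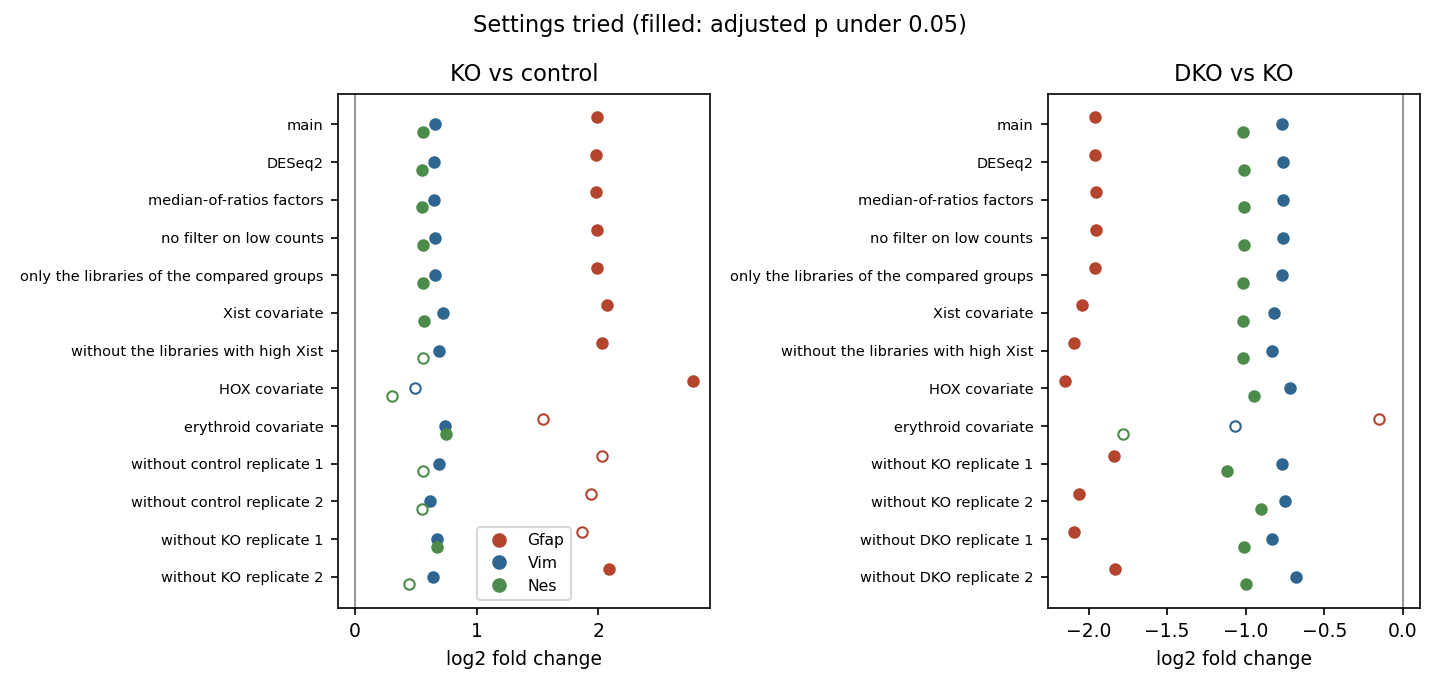
Log2 fold change of Gfap, Vim and Nes in KO against control (left) and DKO against KO (right) under each processing setting tried, filled where the adjusted p was under 0.05. No point crosses 0, and the open points include Gfap at 1.55 and -0.15 with the erythroid covariate and Nes at 0.30 with the HOX covariate.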

How the data were processed

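Polyadenylated RNA from 1 microgram of total RNA per brain sample had been sequenced as 75 bp paired reads, 5 libraries to a lane, per the labels' protocols; the lanes are not named, so lane could not be checked. Reads were aligned with GSNAP to NCBIM37, per the submitters' processing notes; version, annotation release and strand handling: not given in the sources used here. The deposited counts are, per the file headers, reads with a unique alignment to the gene's model. Per the same file headers, the second deposited column is nRPKM, RPKM after size-factor adjustment. Symbols were taken from RefSeq for GRCm38.p6 by Entrez identifier, which named 24998 of 28059 identifiers. On that build no RefSeq gene overlapped Gfap, Vim or Nes.

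edgeR 4.0.16 (R 4.3.3) was used on the counts (quasi-likelihood test, TMM factors, filterByExpr, 5 group means over all 10 libraries, 5 residual degrees of freedom, Benjamini-Hochberg over 18671 genes, call at an adjusted p under 0.05). Standard errors come from the F statistic, and errors of levels are SD. The test was run first on simulated data. Alternatives were DESeq2 1.42.0, other factors, no filter, 2 groups only, covariates and libraries left out. Replicate numbers follow accession order and pair nothing. Named genes are the members, the targeted genes, up to 5 called genes of each list and comparison, and the 5 genes most like each member, of which 1 is not reported here. Stat3, Sox9, Synm, Prph, Krt19, Nefm, Nefl and Jun as a comparison gene for likeness were named outside that rule, after their values were seen. The members and the 16 gene lists were chosen with earlier results of these data known.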

Additional observations from a re-analysis of the deposited data

How the results depend on the processing

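Of 360 refits of the 3 genes over 10 comparisons and 12 alternatives each, 316 kept direction and side of the threshold, 26 lost a call, 3 gained one and 15 changed sign. In KO against control the calls lost under a changed setting were Gfap with the erythroid covariate (1.55), Vim with the HOX covariate (0.49), and Nes both with the HOX covariate (0.30) and when the high-Xist libraries were dropped (0.56). Leaving out 1 library gave 1.87 to 2.09 for Gfap, called only without KO 2, and 0.44 to 0.67 for Nes, called only without KO 1. In DKO against KO the erythroid covariate ended all 3 calls (Gfap -0.15, Vim -1.07, Nes -1.78), in a fit that called 0 genes of the whole table. In TKO against DKO the sign changed for Gfap with the HOX (-0.21) and erythroid (-1.07) covariates and within -0.25 to 0.47 when 1 library was left out, and for Vim with the erythroid covariate (0.09). In QKO against TKO Gfap was called with no filter (-0.89, adjusted p = 0.0234) and ran from -1.43 to -0.48 when 1 library was left out. There Vim changed sign around 0 with DESeq2 (0.00), median-of-ratios factors (0.00) and without the libraries with high Xist (0.00), and ran from -0.06 to 0.06 when 1 library was left out, and Nes was -0.05 with the erythroid covariate. Gfap in DKO against control was -0.06 without the libraries with high Xist, -0.10 to 0.16 when 1 library was left out, 0.63 with the HOX covariate and 1.40 with the erythroid covariate. Gfap in TKO against control was -0.21 to 0.51 when 1 library was left out, and Vim in QKO against DKO was 0.03 with the erythroid covariate. That covariate also ended the calls of Nes in DKO against control (-1.04), Gfap in TKO against KO (-1.22), and Gfap (-1.81) and Vim (-1.04) in QKO against KO. With it 0, 12 and 5 genes of the whole table were called in these 3 comparisons. Nes in TKO against control gained a call when only those libraries were fitted (-0.29). The cause of these changes was not tested. No paired analysis was possible because the replicate numbers were given in accession order and pair nothing.

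The number of genes called over the whole table also depended on the setting. It was 137 in KO against control (23 to 691 over 12 alternatives), 106 in DKO against KO (0 to 336), 17 in TKO against DKO (1 to 159), 54 in QKO against TKO (20 to 160) and 44 in QKO against control (7 to 122). The counting error of Gfap was at most 5.06%, while its 2 libraries differed by up to 0.95 on the log2 scale within a genotype, so the spread between libraries and not depth set its intervals.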
